A study of Mus musculus with 2 samples.

Results

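The genes described here are 8 receptors and ligands of the GDNF family and neurotrophin pathways, Ret, Gfra1, Gfra2, Ntrk2, Ntrk3, Ngfr, Bdnf and Ntf3, chosen by name out of the 31053 genes in the count matrices. Their levels were followed across 15 cell type labels of single nuclei from injured mouse cortex. Of the 8 genes, 7 were present in both libraries. Ngfr, the low-affinity neurotrophin receptor p75, had 1 unique molecular identifier (UMI) in all nuclei with a deposited label of both libraries together, in the female library.

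The nuclei came from the ipsilateral cerebral cortex of Atf3-CreER +/wt and Sun1-sfGFP +/wt mice more than 7 weeks old, at 7 days post injury (dpi) after a closed-skull mild traumatic brain injury (mTBI), with tamoxifen at 4 and 5 dpi. In these mice the Atf3 locus drives a tamoxifen-dependent Cre that switches on GFP at the nuclear envelope of any cell that expresses Atf3 at that time, neuron or not, and GFP+ nuclei were sorted. There were 2 libraries, 1 of males and 1 of females, each a pool of 4 animals, and both groups carried the same alleles and were injured. No uninjured library was analysed here, so the values are levels within the captured nuclei and not changes after injury.

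GDNF family ligands bind a GFRα co-receptor on the cell surface, GFRα1 for GDNF and GFRα2 for neurturin, and the complex signals through the receptor tyrosine kinase RET. The neurotrophins BDNF and NT-3 (the product of Ntf3) act mainly through the receptor tyrosine kinases TrkB (Ntrk2) and TrkC (Ntrk3), and all neurotrophins can bind p75. In the cortex BDNF is made mainly by excitatory neurons, while astrocytes carry a truncated form of TrkB that lacks the kinase.

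Of 8258 barcodes called as nuclei, 8171 had a deposited label, and 1 barcode sequence occurred in both libraries. The 9 neuronal labels with at least 50 nuclei held 2499 nuclei, in 6 excitatory and 3 inhibitory labels, and the fewest were in Vip (61). The 6 other labels tested were Astro (115 nuclei), Micro-PVM (4028), Oligo (68), SMC-Peri (133), VLMC (274) and Unknown (395), the study's name for neuronal nuclei whose cortical origin it could not establish. Depth differed between the libraries, with 11007366 UMIs (male) and 23202343 (female) and medians of 1745.5 and 3690 UMIs per nucleus, so that depth and sex cannot be told apart. Levels are given in CPM, the UMIs of a gene summed over the nuclei of a label and scaled to a total of 1000000 UMIs for every sum, in the male and then the female library. Reads in introns counted towards a gene, and levels were therefore compared between labels for the same gene and never between genes.

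Most labels carried the broad markers of their class. Neuronal markers summed to between 10434 and 20823 CPM in the neuronal labels, astrocyte markers to 14399 and 11722 CPM in Astro and oligodendrocyte markers to 11076 and 9337 CPM in Oligo. The label SMC-Peri went against its name, since the 5 mural markers summed to only 31.7 and 49.4 CPM and Rgs5, Abcc9 and Kcnj8 were at 0, and it is called here by its label only. None of the 171 nuclei of L4/5 IT lay in a deposited cluster led by that label, and only 35 of 154 did so in L2/3 IT CTX-2 and 40 of 188 in L6 IT. Inhibitory markers summed to between 400 and 819 CPM in Pvalb, Sst and Vip, and to at most 105 CPM in the excitatory labels. Excitatory markers summed to 471 and 545 CPM in Vip, beside 531 and 389 CPM in L5 PT. Bcl11b, chosen as an L5 PT marker, had 61.9 and 42.5 CPM there and 110 and 117 CPM in L6 CT. The study reports that its interneurons lacked subclass markers such as Pvalb and Sst. Microglial markers summed to between 286 and 1667 CPM in the neuronal labels, against 3626 and 3814 CPM in Micro-PVM. How much free or microglial RNA added to the levels below was not tested label by label, and counts of calls after subtracting it are given in the closing section.

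Sequences upstream of the start sites were read from RefSeq for the GRCm38 build. ATF3 belongs to the bZIP factors, which bind the AP-1 site (TGANTCA) and the cAMP response element (CRE, TGACGTCA). The tables held 12 upstream windows of 250 bases for 5 of the 8 genes (7 for Bdnf, 2 for Ntf3 and 1 each for Gfra1, Ntrk2 and Ngfr). On either strand, the AP-1 letters were found in 1 of the 12 windows and in 6.75% of all 32851 windows. The first 5 letters of the CRE (TGACG) were also found in 1 of the 12, against 17.8% of all, and the full CRE in none, against 1.55%. Both matches lay upstream of Bdnf, the gene on chromosome 2 (109674700 to 109727007, plus strand) that has many alternative first exons, and these windows are shown with the matched bases in capitals. The AP-1 match begins 152 bases before its start site. The TGACG match, which is not a full CRE, begins 35 bases before its start site and is on the minus strand.
Bdnf, chr2:109676782-109677031, plus strand: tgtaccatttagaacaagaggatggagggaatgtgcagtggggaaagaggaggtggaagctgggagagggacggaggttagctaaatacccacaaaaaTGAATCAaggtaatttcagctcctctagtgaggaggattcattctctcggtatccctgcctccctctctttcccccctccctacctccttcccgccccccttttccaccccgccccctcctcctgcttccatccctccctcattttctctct
Bdnf, chr2:109692186-109692435, plus strand: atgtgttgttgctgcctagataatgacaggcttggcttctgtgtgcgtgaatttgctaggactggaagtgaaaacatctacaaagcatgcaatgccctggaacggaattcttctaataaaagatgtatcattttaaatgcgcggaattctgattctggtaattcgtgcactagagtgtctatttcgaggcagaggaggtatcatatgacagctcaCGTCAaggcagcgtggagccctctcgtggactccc
For Ntf3, the gene that set the Unknown nuclei apart most (chromosome 6, 126101412 to 126166910, minus strand), both windows are shown and neither holds any of these letters.
Ntf3, chr6:126166745-126166994, minus strand: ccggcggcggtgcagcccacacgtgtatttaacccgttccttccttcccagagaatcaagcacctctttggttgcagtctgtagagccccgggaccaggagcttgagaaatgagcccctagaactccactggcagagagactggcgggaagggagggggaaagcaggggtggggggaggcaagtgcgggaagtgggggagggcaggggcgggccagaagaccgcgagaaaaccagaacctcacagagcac
Ntf3, chr6:126164961-126165210, minus strand: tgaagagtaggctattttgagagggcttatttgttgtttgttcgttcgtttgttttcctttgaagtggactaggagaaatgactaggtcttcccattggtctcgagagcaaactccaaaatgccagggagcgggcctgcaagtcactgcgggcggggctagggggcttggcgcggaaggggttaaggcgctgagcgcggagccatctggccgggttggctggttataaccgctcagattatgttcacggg
A match of letters is a description of the window and not a binding site, and the 3′ counts do not tell which start site was used.

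Ret, the signalling receptor of the GDNF family (chromosome 6, 118151745 to 118197718), was found in every neuronal label. Its level was 119 and 222 CPM in L6 CT, 122 and 178 CPM in L5 PT (pyramidal tract neurons) and 131 and 140 CPM in Pvalb. These 3 labels overlapped with each other and lay above all the others in both libraries. Sst followed with 96.7 and 94.6 CPM, apart from its neighbours on both sides. L6 IT (80.3 and 70.6 CPM), L2/3 IT CTX-1 (83.6 and 57.1 CPM), Vip (40.6 and 66.7 CPM), L2/3 IT CTX-2 (65.5 and 39.0 CPM) and L4/5 IT (54.2 and 47.9 CPM) each overlapped with the next. In the 6 other labels tested Ret was at most 20.5 CPM.

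The share of L5 PT nuclei with a Ret UMI was 39.2% (male) and 69.0% (female), at median depths of 3790 and 10700 UMIs. After thinning each nucleus to 2300 UMIs it was 27.2% and 32.0%, close to Pvalb (25.5% and 24.5%) and L6 CT (28.6% and 38.6%). Microglia served as a background, at 2.31% and 2.48% before thinning (median depths 1298.5 and 3012.5 UMIs) and 1.55% and 1.42% after. Barcodes with at most 50 UMIs, which hold free RNA, had 64.1 and 62.4 CPM of Ret, above the lowest neuronal labels.

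**Figure D1:**
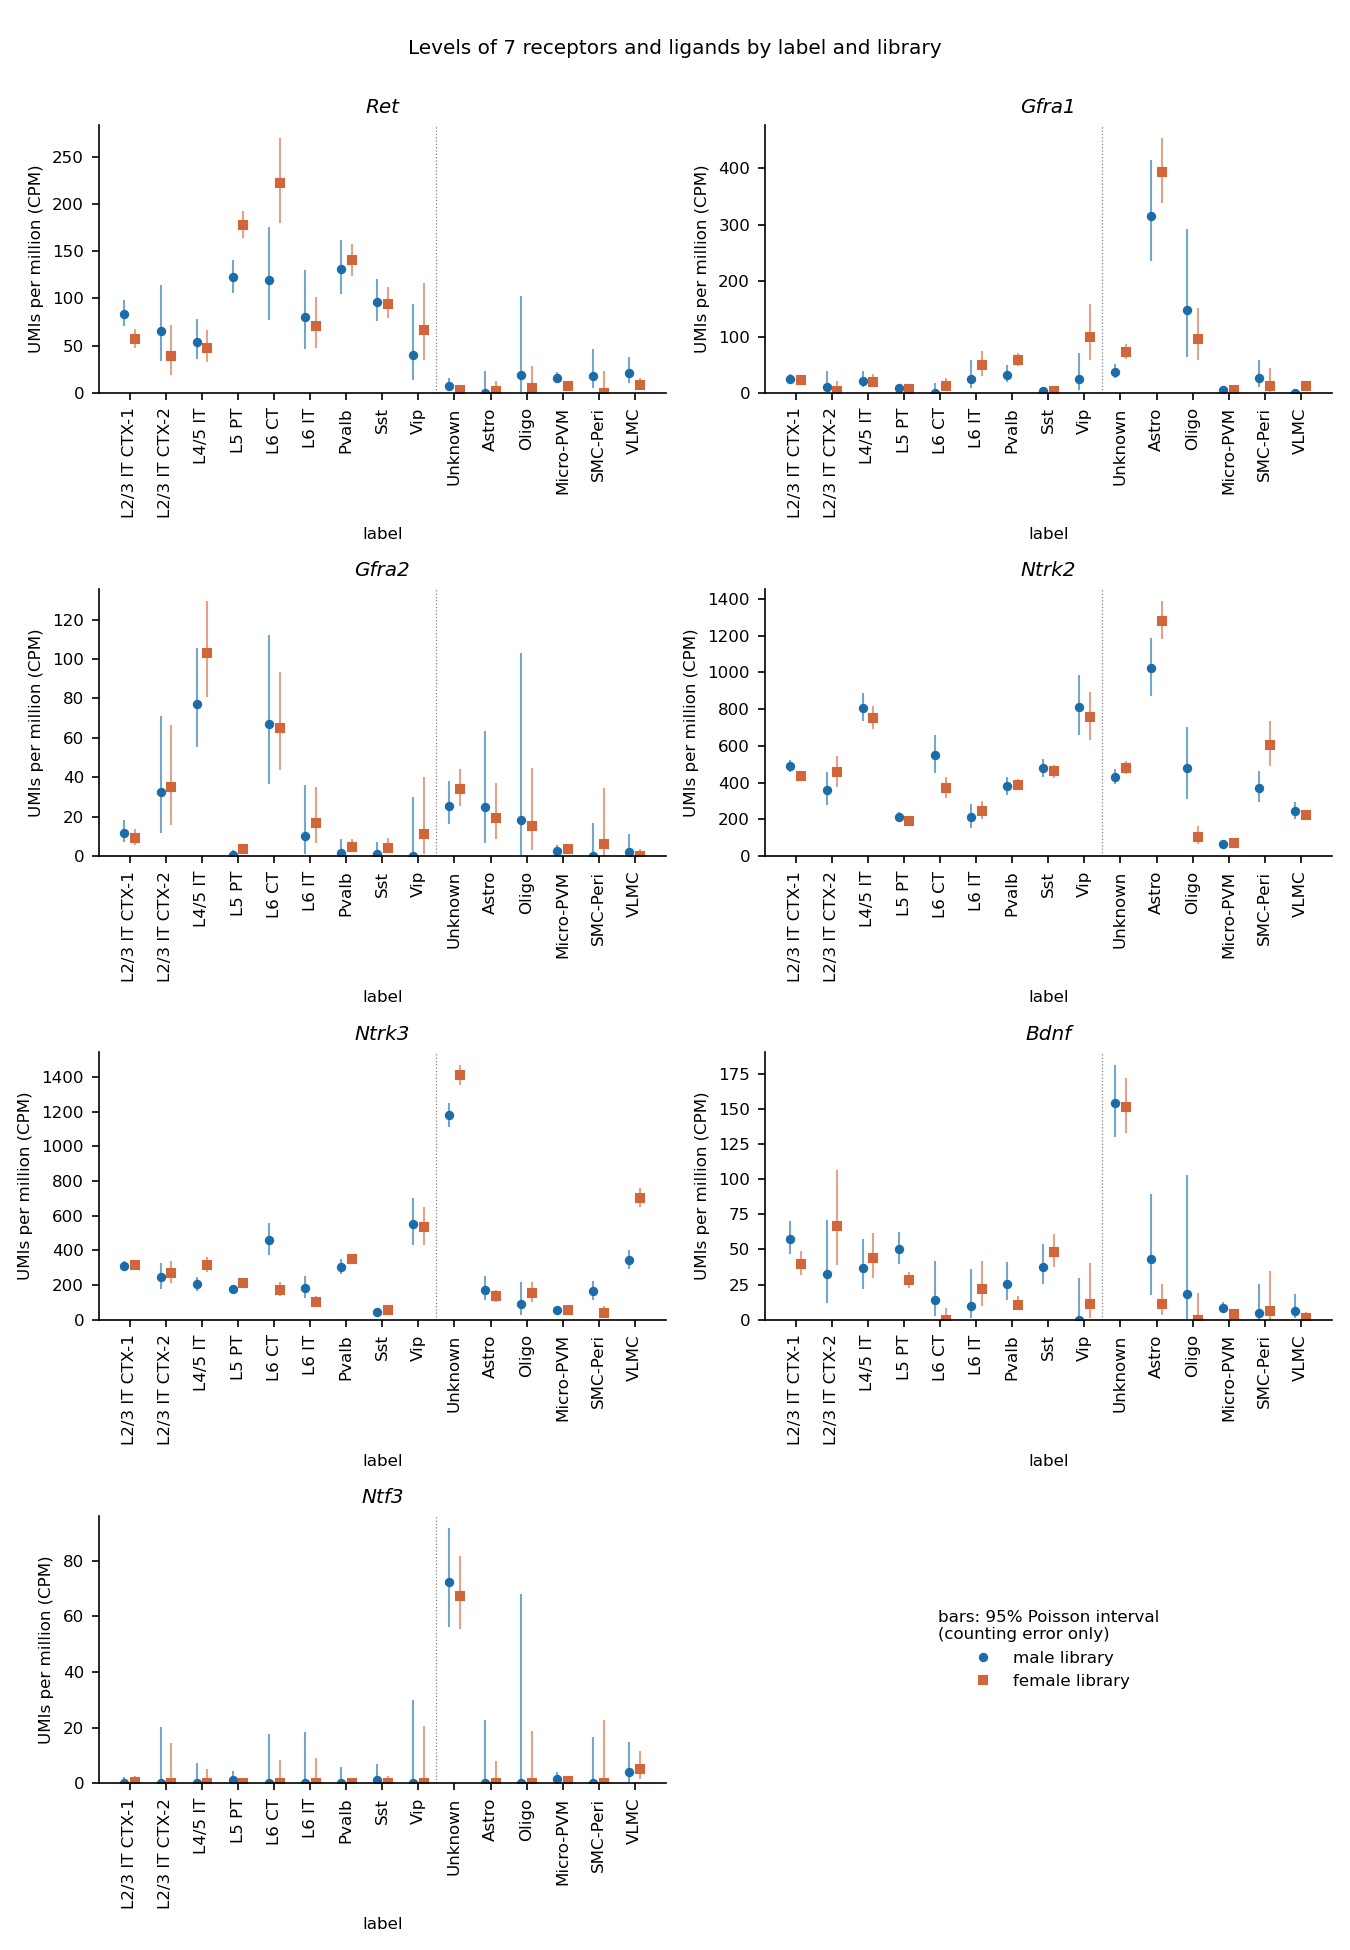
Levels of 7 of the genes (CPM of summed UMIs, linear axes from 0) in 9 neuronal labels and, right of the dotted line, 6 other labels, with a point per library and bars for the 95% Poisson interval of counting error. Ret lies at 39.0 CPM or more in every neuronal label and at most 20.5 CPM in the 6 other labels, while Ntrk3, Bdnf and Ntf3 are highest in Unknown and Gfra1 and Ntrk2 in Astro.

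Each neuronal label was tested against the mean of the other 8 with the quasi-likelihood test of edgeR and adjusted by Benjamini-Hochberg over 8664 genes, and the labels therefore serve as each other's controls. Ret was higher in L6 CT (log2 fold change 1.15 ± 0.23 SE, adjusted p = 0.00148), in L5 PT (0.94 ± 0.18, adjusted p = 0.000538) and in Pvalb (0.82 ± 0.20, adjusted p = 0.00372). In L6 CT the libraries alone gave 0.52 and 1.46. Ret was lower in L4/5 IT (-0.83 ± 0.27, adjusted p = 0.0433). The labels were made by reference mapping from the same counts, and the 2 libraries are the only replicates, so p-values measure the spread between these pools.

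Gfra1 (chromosome 19, 58235604 to 58455909) encodes the co-receptor for GDNF, and it was highest outside the neurons. Astro had 316 and 393 CPM and Oligo 148 and 96.6 CPM, and the Astro values lay above every other label tested in both libraries. Of the Astro nuclei, 45.3% and 72.6% had a Gfra1 UMI (41.4% and 44.8% thinned), against 0.592% and 1.41% of microglia.

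Among neurons Gfra1 was concentrated in Pvalb (31.5 and 58.8 CPM), Vip (24.3 and 100.0 CPM) and L6 IT (25.1 and 48.7 CPM), which overlapped. L2/3 IT CTX-1 had 24.7 and 23.6 CPM and L4/5 IT 21.3 and 19.7 CPM. At the low end were L5 PT (8.57 and 6.94 CPM), L2/3 IT CTX-2 (10.9 and 3.90 CPM), L6 CT (0 and 11.2 CPM) and Sst (3.77 and 2.78 CPM, from 3 and 4 UMIs), and these 4 overlapped in order. Free RNA held 25.7 and 21.2 CPM of Gfra1, above these 4 labels.

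By the same edgeR test, Benjamini-Hochberg adjusted, Gfra1 was higher in Pvalb (1.83 ± 0.32, adjusted p = 0.000169) and in Vip (2.29 ± 0.51, adjusted p = 0.00411), and lower in Sst (-2.53 ± 0.58, adjusted p = 0.00363) and in L5 PT (-1.21 ± 0.41, adjusted p = 0.0433). The Vip value rested on 3 and 18 UMIs in 3 nuclei of each library. The L5 PT call was lost with DESeq2 (adjusted p = 0.0519), and the libraries alone gave -0.24 and -1.30. In thinned nuclei the edgeR calls were lost in L5 PT (-0.49, adjusted p = 0.895), Vip (2.25, adjusted p = 0.136) and Sst (-4.93). With only the nuclei in clusters led by their own label, L5 PT (-0.42), Vip (1.62) and Sst (-1.48) were not called either. Pvalb was called higher for both Ret and Gfra1, while L5 PT was called higher for Ret and lower for Gfra1.

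Gfra2 (chromosome 14, 70890120 to 70979838) encodes the co-receptor for neurturin, and it differed widely between the excitatory labels. L4/5 IT had 77.4 and 103 CPM, L6 CT 66.9 and 65.1 CPM and L2/3 IT CTX-2 32.7 and 35.1 CPM, each apart from the next. The other labels ran from L6 IT (10.0 and 17.1 CPM) and L2/3 IT CTX-1 (mean 10.6 CPM) down to L5 PT, with 0.612 and 3.76 CPM from 1 and 13 UMIs. Pvalb (1.58 and 4.65 CPM), Sst (1.26 and 4.17 CPM) and Vip (0 and 11.1 CPM, from 0 and 2 UMIs) overlapped with L5 PT. Free RNA held 8.55 and 7.81 CPM of Gfra2, above L5 PT, Pvalb and Sst.

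Gfra2 was higher in L4/5 IT (3.25 ± 0.30, adjusted p = 8.2e-08) and in L6 CT (2.64 ± 0.38, adjusted p = 4.01e-05) by the edgeR test. It was lower in L5 PT (-2.41 ± 0.48, adjusted p = 0.000837), in Sst (-2.12 ± 0.57, adjusted p = 0.0120) and in Pvalb (-1.79 ± 0.53, adjusted p = 0.0185). Of the 3 labels called higher for Ret, L6 CT was called higher for Gfra2 and the other 2 lower.

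Ntrk2 (chromosome 13, 58806569 to 59133970), the gene of TrkB, had UMIs in every label. Free RNA held 351 and 340 CPM of it, above L5 PT, L6 IT and microglia. Its level was 1021 and 1281 CPM in Astro, above all other labels tested in both libraries. Vip (811 and 756 CPM) and L4/5 IT (809 and 752 CPM) overlapped with each other and lay above the rest. A broad middle group of overlapping labels held Sst (479 and 461 CPM), L2/3 IT CTX-1 (489 and 435 CPM), L6 CT (549 and 373 CPM), L2/3 IT CTX-2 (360 and 457 CPM) and Pvalb (382 and 390 CPM). L6 IT (211 and 248 CPM) and L5 PT (214 and 190 CPM) were the lowest neuronal labels, and microglia were lower still (66.6 and 70.0 CPM). In thinned nuclei, 71.2% and 67.1% of L4/5 IT had an Ntrk2 UMI, against 35.1% and 35.6% of L5 PT and 11.3% and 13.5% of microglia.

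By the edgeR test Ntrk2 was higher in L4/5 IT (1.02 ± 0.14, adjusted p = 1.55e-05) and in Vip (0.99 ± 0.15, adjusted p = 0.000104). It was lower in L5 PT (-1.19 ± 0.16, adjusted p = 1.18e-05) and in L6 IT (-1.07 ± 0.18, adjusted p = 0.000972). The counts do not separate the full-length receptor from the truncated form.

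Ntrk3 (chromosome 7, 78175959 to 78738012), the gene of TrkC, ranged among the neurons from Vip to Sst, beside 210 and 234 CPM in free RNA. Vip had 552 and 533 CPM and stood apart from the next label. Pvalb (304 and 350 CPM), L6 CT (459 and 173 CPM), L2/3 IT CTX-1 (310 and 313 CPM), L4/5 IT (205 and 317 CPM) and L2/3 IT CTX-2 (245 and 269 CPM) overlapped in order, and the libraries disagreed most in L6 CT. L5 PT (179 and 210 CPM) and L6 IT (181 and 102 CPM) overlapped, and Sst (44.0 and 57.7 CPM) was lowest, with no overlap with another neuronal label.

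Ntrk3 was higher in Vip (1.41 ± 0.24, adjusted p = 0.000200) and in Pvalb (0.70 ± 0.20, adjusted p = 0.0168), and lower in Sst (-2.29 ± 0.27, adjusted p = 1.73e-06) and in L6 IT (-0.95 ± 0.28, adjusted p = 0.0470), by the edgeR test. The calls in Pvalb and L6 IT were lost with DESeq2 (adjusted p = 0.0701 and 0.0523) and with library totals in place of TMM factors (adjusted p = 0.0611 and 0.112). With the library as a block, Ntrk3 was also called higher in L2/3 IT CTX-1 (0.52, adjusted p = 0.0209).

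Bdnf was low in the neuronal labels, beside 29.9 and 25.6 CPM in free RNA. It reached 57.8 and 39.9 CPM in L2/3 IT CTX-1, 32.7 and 66.4 CPM in L2/3 IT CTX-2, 37.7 and 48.0 CPM in Sst, 36.8 and 43.7 CPM in L4/5 IT and 50.2 and 28.1 CPM in L5 PT, and these labels overlapped. Pvalb had 25.2 and 10.8 CPM and L6 IT 10.0 and 21.9 CPM. L6 CT (14.3 and 0 CPM) and Vip (0 and 11.1 CPM) held at most 3 UMIs in a library.

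By the edgeR test Bdnf was higher in L2/3 IT CTX-1 (1.22 ± 0.32, adjusted p = 0.0136) and in Sst (1.16 ± 0.35, adjusted p = 0.0251), and the Sst call was lost with library totals alone (adjusted p = 0.0663). With the library as a block it was also called higher in L5 PT (0.81, adjusted p = 0.0283) and lower in L6 CT (-2.56, adjusted p = 0.0313). With the same block Gfra1 was called higher in L6 IT (1.35, adjusted p = 0.0364).

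Ntf3 was almost absent from the 9 neuronal labels, with 3 UMIs of 5956925 in the male library (0.504 CPM) and 1 of 11040168 in the female library (0.0906 CPM). The UMIs lay in L5 PT and Sst in the male and in L2/3 IT CTX-1 in the female library. Neither Ntf3 nor Ngfr passed the filter on low counts among the neuronal labels, and they have no test there. For Ngfr the 3 UMIs that a count of 0 allows amount to 0.504 and 0.272 CPM over the neuronal labels, counting error only.

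Taken by label, the 6 genes tested gave 23 calls in 54 pairs of gene and label, 13 higher and 10 lower. L5 PT had 4 of 6 beside 17.8% of all genes tested in that label, Pvalb 4 beside 19.2% and Sst 4 beside 14.6%. L4/5 IT and Vip had 3 each beside 12% and 9.94%, L6 CT and L6 IT 2 each beside 9.88% and 6.12%, and L2/3 IT CTX-1 had 1 beside 9.73%. In L2/3 IT CTX-2 none was called by edgeR's adjusted p, beside 2.19% of all genes, while Ret, Gfra2 and Bdnf had an unadjusted p under 0.05 and DESeq2 called Gfra2 (adjusted p = 0.0418). Among the inhibitory labels, Pvalb was called higher for Ret, Gfra1 and Ntrk3, Vip for Gfra1, Ntrk2 and Ntrk3, and Sst for Bdnf, each against the mean of the other labels, and differences between the inhibitory labels themselves were not tested.

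**Figure D2:**
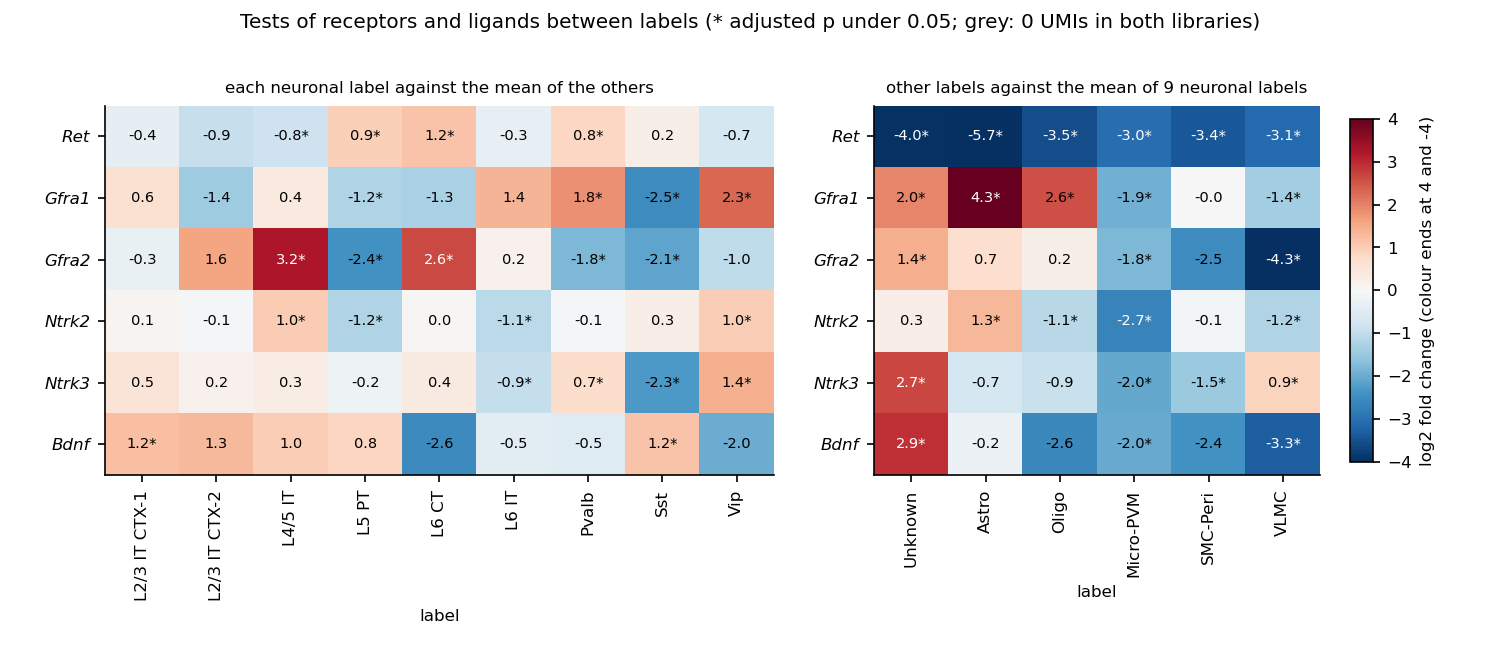
Log2 fold changes of 6 genes (rows) in each neuronal label against the mean of the others (left) and in each other label against the mean of the 9 neuronal labels (right), from edgeR, with an asterisk where the adjusted p was under 0.05. The Ret row is negative and called in all 6 labels on the right, and the Gfra2 row runs from 3.25 in L4/5 IT to -2.41 in L5 PT on the left.

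The question behind the next comparison is how injured layer V projection neurons differ from those of layer II/III. Between L5 PT and the mean of the 2 L2/3 IT labels, 3 of the 6 genes tested were called, beside 12.8% of all genes. Ret was 1.41 ± 0.25 higher on the log2 scale in L5 PT (adjusted p = 0.000342), from 122 and 178 CPM against means of 74.5 and 48.1 CPM, and the libraries alone gave 0.84 and 2.07. Gfra2 was lower (-2.72 ± 0.51, adjusted p = 0.000622), with -4.07 and -1.97 in the libraries alone, from at most 3.76 CPM against 22.4 and 22.1 CPM. Ntrk2 was lower (-1.08 ± 0.18, adjusted p = 0.000232), with -0.85 and -1.06 in the libraries alone. All 3 kept their direction in both libraries.

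The other 3 did not pass the edgeR test, Benjamini-Hochberg adjusted: Ntrk3 (-0.50 ± 0.25, adjusted p = 0.236), Bdnf (-0.37 ± 0.35, adjusted p = 0.592) and Gfra1 (-0.71 ± 0.66, adjusted p = 0.577). For Bdnf the libraries had opposite signs (0.32 and -0.70). Without the labels L2/3 IT CTX-2 and L6 IT, whose nuclei lay mostly in clusters of other labels, Gfra1 was also called lower (-1.62, adjusted p = 0.0177). With only the nuclei in clusters led by their own label, Gfra2 (-2.82, adjusted p = 0.207) and Ntrk2 (-0.56, adjusted p = 0.380) were no longer called.

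Between the mean of the inhibitory and the mean of the excitatory labels, 2 of 6 were called, beside 24.6% of all genes, a share not far above the background. Gfra2 was lower in the inhibitory labels (-2.19 ± 0.40, adjusted p = 0.000233), with means of 0.944 and 6.64 CPM against 33.3 and 38.8 CPM. Ntrk2 was higher (0.52 ± 0.10, adjusted p = 0.000513), by 0.53 and 0.55 in the libraries alone. Ret did not pass (0.16 ± 0.20, adjusted p = 0.615), and its inhibitory means of 89.4 and 101 CPM lay beside excitatory means of 87.6 and 103 CPM. The edgeR calls were lost in thinned nuclei for Ntrk2 (0.33, adjusted p = 0.0579) and in nuclei of clusters led by their label for Gfra2 (-3.13, adjusted p = 0.0590).

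The Unknown nuclei had a pattern of their own. Ntrk3 was 1178 and 1411 CPM, Bdnf 154 and 151 CPM and Ntf3 72.3 and 67.5 CPM, above all other labels tested in both libraries. Ret was 7.44 and 3.15 CPM, from 7 and 5 UMIs, below all 9 neuronal labels. The Unknown nuclei therefore held the 2 ligands and the receptor of NT-3 at a high level with little Ret.

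Tested against the mean of the neuronal labels over 10642 genes, 6 of 7 genes were called in Unknown, beside 30.8% of all genes. By the quasi-likelihood test of edgeR (Benjamini-Hochberg), Bdnf was higher by 2.91 ± 0.28 (adjusted p = 1.44e-09), Ntrk3 by 2.69 ± 0.22 (adjusted p = 5.96e-11), Gfra1 by 1.95 ± 0.34 (adjusted p = 3.21e-05) and Gfra2 by 1.44 ± 0.34 (adjusted p = 0.00133). Ret was lower (-3.96 ± 0.42, adjusted p = 1.12e-08). Ntrk2, with 433 and 482 CPM, did not pass (0.28 ± 0.23, adjusted p = 0.422).

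For Ntf3 a fitted fold would depend on the few neuronal counts, so the ratio of levels is given. With 68 and 107 UMIs in Unknown, the level was 144 times that of the neuronal labels in the male library (95% exact counting interval 47.1 to 713) and 745 times in the female library (131 to 29696). The share of Unknown nuclei with an Ntf3 UMI was 22.2% and 35.9%, and 13.1% in both libraries after thinning, when no neuronal nucleus had one. The intervals cover counting error only.

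**Figure D3:**
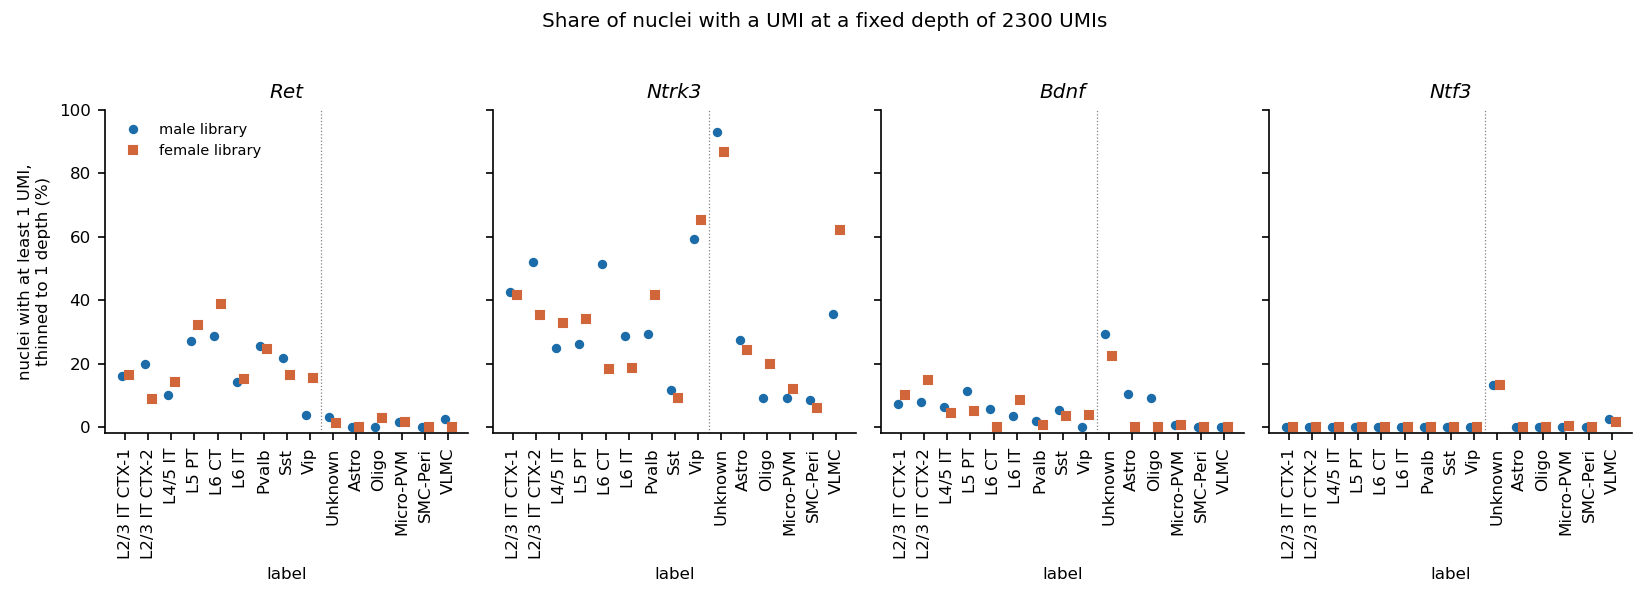
Percent of nuclei with at least 1 UMI of Ret, Ntrk3, Bdnf and Ntf3 after thinning each nucleus to 2300 UMIs, by label, with a point per library. Ntf3 stands at 13.1% in Unknown in both libraries and at 0% in the 9 neuronal labels, whereas Ret is highest in L6 CT, L5 PT and Pvalb.

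The Unknown nuclei came from 2 deposited clusters. The larger, cluster 7 with 190 and 143 nuclei, had Ntf3 at 71.2 and 67.1 CPM, Ntrk3 at 1197 and 1454 CPM, Bdnf at 160 and 153 CPM and Ret at 6.68 and 2.66 CPM. The smaller, cluster 23 with 35 and 27 nuclei and only 41689 and 80707 UMIs, had Ntf3 at 95.9 and 74.3 CPM from 4 and 6 UMIs and Ntrk3 at 768 and 607 CPM, and 1 UMI of Ret in each library. Its Bdnf was 24.0 CPM, from 1 UMI, in the male pool, within the range of the neuronal labels, and 112 CPM in the female pool. High Ntf3 and Ntrk3 were thus found in both clusters.

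Before the label was set to Unknown, the mapping had placed 84.8% of these nuclei in L2/3 IT CTX-1 and 12.9% in L6 IT. Against L2/3 IT CTX-1, which had 310 and 313 CPM of Ntrk3, 57.8 and 39.9 CPM of Bdnf and 0 and 0.454 CPM of Ntf3, the Unknown nuclei were higher in all of these in both libraries. Excitatory markers summed to 1339 and 1263 CPM in Unknown, above the range of the neuronal labels, and all neuronal markers to 7366 and 6757 CPM, below it. VLMC and mural markers were at or near 0. Atf3, the gene whose Cre marked the sorted nuclei, was at 4.25 and 5.05 CPM, and it was lower than in the neuronal labels (-4.42 ± 0.56, adjusted p = 2.12e-07 by edgeR, Benjamini-Hochberg adjusted). The part of low Atf3 in this pattern was not tested.

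The same test was run for the 5 non-neuronal labels. Over all 6 labels, Unknown included, 28 of 42 pairs of gene and label were called, 11 higher and 17 lower, against 1 shared set of neuronal sums. In Micro-PVM all 7 genes were called beside 59.9% of all genes, and in VLMC all 7 beside 50.4%. In Astro 3 were called beside 35.1%, in Oligo 3 beside 23.5% and in SMC-Peri 2 beside 36.7%, so that the counts in Astro and SMC-Peri were near or below the share of all genes.

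Ret was lower than in neurons in each of these labels by edgeR's adjusted p, with log2 fold changes from -3.04 ± 0.31 in Micro-PVM (adjusted p = 1.3e-09) to -5.73 ± 0.78 in Astro (adjusted p = 6.33e-07). Astro held 0 and 1 UMI of Ret and Oligo 1 in each library. Gfra1 was higher in Astro (4.33 ± 0.30, adjusted p = 1.43e-12) and in Oligo (2.59 ± 0.53, adjusted p = 0.000432). These glial labels thus held the co-receptor with at most 1 UMI of Ret in a library.

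Ntrk2 was higher in Astro (1.33 ± 0.21, adjusted p = 9.03e-06) and lower in Micro-PVM (-2.66 ± 0.29, adjusted p = 4.47e-09) and in VLMC (-1.22 ± 0.27, adjusted p = 0.000312) by the same edgeR test. In Oligo it was lower (-1.11 ± 0.33, adjusted p = 0.0118), but its levels of 481 and 107 CPM lay far apart, and the call was lost with library totals alone (adjusted p = 0.0726). In SMC-Peri Ntrk2 was 372 and 606 CPM and did not pass (-0.09 ± 0.26).

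VLMC was the non-neuronal label with Ntrk3 above the neurons, at 343 and 703 CPM (0.90 ± 0.26, adjusted p = 0.00446 by edgeR, Benjamini-Hochberg adjusted), while Micro-PVM (-2.03 ± 0.33) and SMC-Peri (-1.47 ± 0.40) were lower. Astrocyte markers summed to 1483 and 1512 CPM in VLMC, beside 458 and 690 CPM of its own markers. Slc1a3 alone made up 1338 and 1300 CPM of this, while Slc1a2 was at 43.1 and 34.8 CPM, against 8577 and 7265 CPM in Astro, and their part in the result was not tested. Bdnf was lower in VLMC (-3.31 ± 0.71, adjusted p = 0.000269) and in Micro-PVM (-2.02 ± 0.44, adjusted p = 0.000251). Gfra2 was lower in both of these, and Gfra1 was lower in Micro-PVM (-1.91 ± 0.45, adjusted p = 0.000528).

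In VLMC Gfra1 was at 0 and 11.9 CPM, and its call (-1.39 ± 0.59, adjusted p = 0.0496) was lost under the study's limits on genes and mitochondrial UMIs (adjusted p = 0.0575) and with library totals (adjusted p = 0.121). Ntf3 was called in VLMC from 2 and 5 UMIs (4.11 and 4.98 CPM) and in Micro-PVM from 4 and 7 UMIs (1.60 and 0.870 CPM). Neither was called by DESeq2 (adjusted p = 0.309 and 0.679), and free RNA held 6.41 and 5.58 CPM of Ntf3. With the library as a block Bdnf was called lower in SMC-Peri (-2.47, adjusted p = 0.0471), from 1 UMI in each library.

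Receptors and partners were counted in the same thinned nuclei as a description. Over the neuronal labels, Ret and Gfra1 were found together in 6 of 959 male and 12 of 1038 female nuclei, where the product of the single shares gives 5.99 and 9.12. Ret and Gfra2 were together in 3 and 2 nuclei (4.96 and 6.68 from the product). Ntrk2 and Bdnf were together in 35 and 28 nuclei (34.7 and 28.7), and Ntrk2 and Ntrk3 in 177 and 174 (154 and 168). Ret with Gfra2 lay below the product in both libraries and Ntrk2 with Ntrk3 above it, but neither departure exceeded counting error. For Ret with Gfra2 the exact intervals of the shares were 0.0646% to 0.911% and 0.0233% to 0.694%, with products of 0.517% and 0.643%. For Ntrk2 with Ntrk3 they were 16.05% to 21.06% and 14.54% to 19.18%, with products of 16.06% and 16.22%. Differences in depth and label also lie within these totals.

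Several other ligands of the families were near 0 over all these nuclei together. Gdnf, the ligand of GFRα1, had 2 and 15 UMIs in the nuclei of the 15 labels, Nrtn 6 and 6, Artn 0 and 3, and Pspn none. Ntf5, the gene of neurotrophin-4, had 6 and 4. In the female library 8 of the 15 Gdnf UMIs lay in Oligo (40.7 CPM). The male Oligo sum held 0, and 3 UMIs amount to 55.5 CPM there.

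A list of 83 ligands, co-receptors, adaptors, kinases and processing enzymes of these pathways was read beside the 8 genes, and 63 passed the filter among the neuronal labels. In L5 PT against L2/3 IT, 8 were higher and 5 lower (20.6%, beside 12.8% of all genes), and the median log2 fold change was -0.01 for the list and -0.02 for all genes. Lower in L5 PT were Pcsk2, a convertase that processes prohormones (-3.08 ± 0.19, adjusted p = 4.49e-10), and the sortilin family receptor Sorcs3 (-2.34 ± 0.23, adjusted p = 3.18e-07), by edgeR, Benjamini-Hochberg adjusted. Pcsk2 was 41.6 and 46.0 CPM in L5 PT against 417 and 367 CPM in L2/3 IT, without overlap. Lingo1, a partner of p75 in the Nogo receptor complex, was also lower (-1.91 ± 0.36, adjusted p = 0.000613), as was Rps6ka5 (-1.34 ± 0.32). Higher in L5 PT were the Trk adaptor Shc3 (1.70 ± 0.21, adjusted p = 6.22e-06) and Kidins220, a scaffold of Trk receptors (0.99 ± 0.17, adjusted p = 0.000319). Ptprs, Cbl, Dok5, Gab2, Rtn4r and Rps6ka3 were higher by 0.61 to 0.92. The list's calls went in both directions.

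In inhibitory against excitatory labels, 8 of the list were higher and 8 lower (25.4%, beside 24.6% of all genes), with medians of 0.02 and -0.05, a share like that of all genes. The lower ones included Lingo1 (-2.71 ± 0.32, adjusted p = 9.33e-07), the Nogo receptor Rtn4r (-2.49 ± 0.19, adjusted p = 1.64e-09) and again Pcsk2 (-1.94 ± 0.12, adjusted p = 6.72e-11) and Sorcs3 (-1.90 ± 0.17). Sorcs1 (-1.41 ± 0.20), the ubiquitin ligase Nedd4l (adjusted p = 1.19e-07), Pik3r1 (-0.79 ± 0.24, with -1.75 and -0.30 in the libraries alone) and Shc3 (-0.55 ± 0.17) were lower too. The higher ones included Ncam1 (1.14 ± 0.09), which can also bind GDNF with GFRα1, the adaptor Gab2 (1.07 ± 0.10), and Pcsk1, Rps6ka3, Sos1, Nedd4 and Rapgef1 by 0.32 to 0.69.

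**Figure D4:**
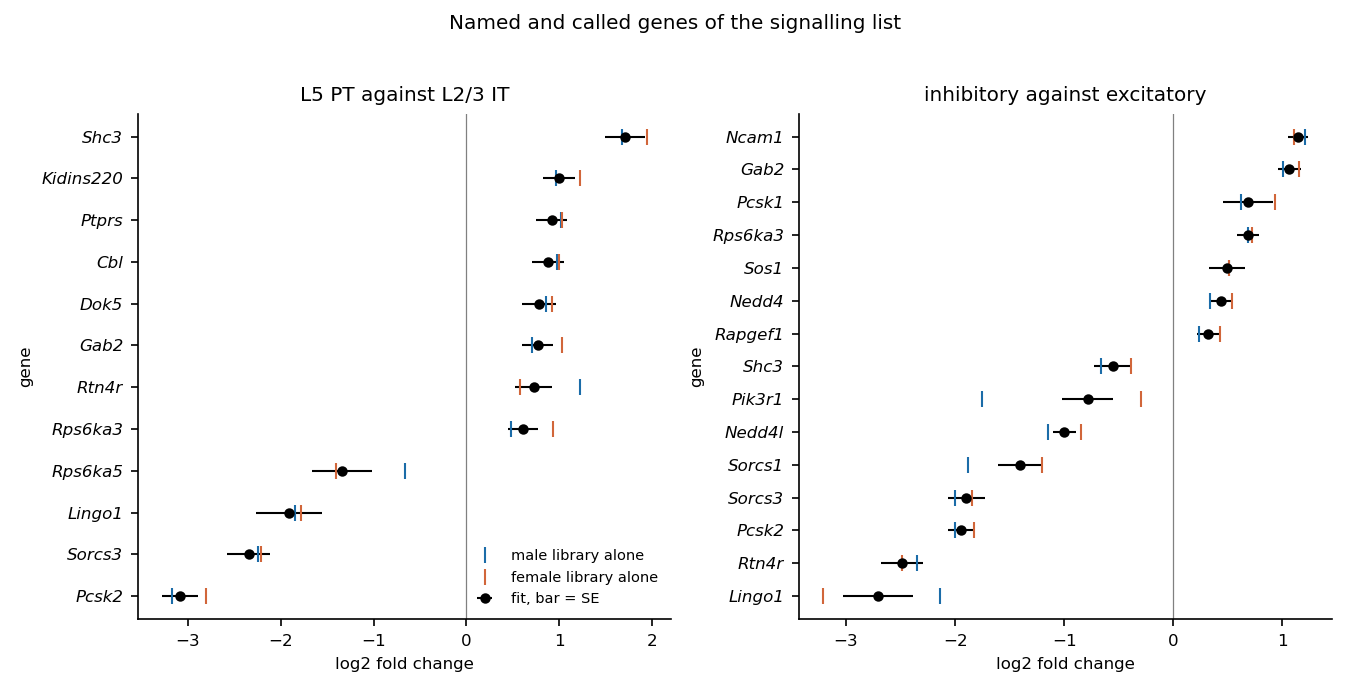
Log2 fold changes of the named genes of the pathway list that were called in L5 PT against L2/3 IT (left) and in inhibitory against excitatory labels (right). Black points are the fit with bars for its SE, and coloured marks are each library alone. Pcsk2, Sorcs3 and Lingo1 are at the low end on both sides, and Shc3 is the highest of these on the left and Ncam1 on the right.

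The genes whose levels followed each of the 6 tested genes most closely over the 18 neuronal sums were found by Pearson's r of log2(CPM + 1). The sums share libraries, depth and labels, so r is a description. Ret was followed by Pappa2 (r = 0.83), Ascc3 (0.81) and Hectd2 (0.81), and Gfra1 by Lima1 (0.77), Dnah7b (0.77) and Syt17 (0.76). Gfra2 was followed by Grm3 (0.89), Sv2b (0.88) and Dkk3 (0.87), and Ntrk2 by Mtus2 (0.91), Bsn (0.90) and Cacng2 (0.88). For Ntrk3 they were Zmat4 (0.78), Disp3 (0.77) and Rasal2 (0.77), and for Bdnf Impa1 (0.85), Mthfs (0.84) and Gm12905 (0.84).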

How the data were processed

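Nuclei of 2 libraries, each a pool of 4 animals, were sequenced with 10X Genomics 3′ chemistry. Cell Ranger was used by the authors, with a GRCm38 pre-mRNA reference, to make the deposited counts of UMIs for each gene and barcode, which are not normalized. The submitters' processing notes name Cell Ranger 3.1.0, and the methods and headers of the files name other versions. The authors also deposited a table of nuclei made in Seurat with the percent of mitochondrial UMIs, a cluster number, corrected totals (a score that was not used) and labels from reference mapping, and a matrix of corrected values that was not used. A label field gives the second library as male, while its title and the deposited table give it as female.

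UMIs were summed per library and label. Labels were kept from 50 nuclei, and the non-neuronal ones with at least 5 in each library. The 18 neuronal sums (8664 genes, biological coefficient of variation 0.171) and all 30 sums (10642 genes, 0.207) were each fitted at once in edgeR 4.0.16 (R 4.3.3) with TMM factors, filterByExpr and the quasi-likelihood test, with Benjamini-Hochberg adjustment over all genes tested and a call at an adjusted p under 0.05. The sums had between 52889 and 7879175 UMIs of tested genes. The SE of a fold change was worked back from the test, as the absolute log2 fold change divided by the square root of the quasi-likelihood F. Fold changes of 1 library are log2 ratios with 0.5 CPM added. Intervals are exact (Poisson or Clopper-Pearson, 95%), cover counting error only, and 3 UMIs were taken as the limit of a count of 0. No doublet caller was run. Nuclei were thinned to 2300 UMIs, the 20th percentile of the neurons rounded down, leaving out shallower ones. On simulated data for L5 PT against the others, run on 7884 genes, 67% of 2-fold and 96% of 4-fold changes were recovered. For Unknown, run on 9098 genes, it was 36% and 82%. The simulation changed randomly picked genes in 1 label only and drew each sum independently. Recovery of genes with few UMIs was not read separately.

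Sums of 1 library come from the same animals, so the library pairs the labels. As a check, differences between libraries were correlated over 8664 genes between 36 pairs of labels (r from 0.0269 to 0.470, median 0.162). Positions are from GENCODE vM21. Named are the 8 genes, up to 10 list genes called in each direction and comparison with the same sign in both libraries, marker genes, and the 3 genes most like each tested gene. The ligands near 0 were named after their values were seen. A few genes of the lists are not reported here by name. The 8 genes and the lists were chosen with earlier results of these data known. Alternatives were DESeq2 1.42.0, other scalings, no filter, a library block, the study's limits on nuclei, subtraction of free RNA, thinning, 2 choices of nuclei and each library alone. Counts and figures were made in Python 3.11.15 (pandas 2.3.3, numpy 2.4.6, scipy 1.17.1, matplotlib 3.10.9).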

Additional observations from a re-analysis of the deposited data

Results flagged for a closer look

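Some of the genes were also present in nuclei that no comparison used, at more than the 3 UMIs that a count of 0 allows in each library. The values are given as the mean of both libraries, followed by the male and the female library. In 573 nuclei with a neuronal label that the study left out of its set of neurons, Ntrk2 was at 193 CPM (133 and 253) and Ntrk3 at 105 CPM (78.6 and 132). In the 35 nuclei labelled L5 IT, Ntrk2 was at 648 CPM (618 and 679), Ntrk3 at 206 CPM (245 and 167) and Gfra2 at 65.8 CPM (103 and 28.7, from 8 and 6 UMIs). In the 27 nuclei labelled Lamp5, Ntrk2 was at 786 CPM (666 and 907) and Ntrk3 at 189 CPM (133 and 246). In the 11 nuclei labelled Sncg, Ntrk2 was at 865 CPM (972 and 758) and Ntrk3 at 587 CPM (288 and 886).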

How the results depend on the processing

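The 56 calls of the 8 genes all kept their sign in each library alone, which gives a value with no test. Of these 56, 51 were called again by DESeq2, 55 with upper quartile factors, 51 with library totals only, 56 without a filter, 55 under the limits on genes and mitochondrial UMIs and 56 with the library as a replicate block, which gave 3, 2, 27 and 29 calls in place of 3, 2, 23 and 28 (L5 PT against L2/3 IT, inhibitory against excitatory, each neuronal label, each other label), and 19 and 16 in place of 13 and 16 for the list. Beside the 5 calls named above, the block changed no call of these genes. Library totals in place of TMM factors moved the median change of the genes by -0.17 to 0.36 on the log2 scale, the highest in SMC-Peri, and the directions held.

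With free RNA subtracted by the microglial markers, 28 of 56 remained, and the 6 counts fell to 1, 1, 8 and 18, and 1 and 7 for the list. Without neuronal nuclei that held 2 or more microglial UMIs, which kept 50.9% of the male and 6.58% of the female neuronal nuclei, they were 0, 0, 2 and 17, and 3 and 6, with 19 of the 35 calls that could be tested remaining. The cause was not tested. Gfra1 in VLMC turned to 0.34 (subtraction) and 0.025 (without nuclei), and Ntrk3 in L6 IT to 0.015 (without nuclei). Thinning, in which fewer UMIs enter, kept 38 of the 54 calls that could be tested. It gave 1 call for inhibitory against excitatory and 10 over the neuronal labels, and the reason for the fall was not tested. Nuclei in clusters led by their label kept 16 of the 25 calls that could be tested and gave 1 call in each of the first 2 comparisons. Without L2/3 IT CTX-2 and L6 IT, a choice made after seeing the data, 51 of 54 calls remained.

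Depth limits Gfra1, Gfra2, Bdnf and Ntf3, which had few UMIs in many labels. A label held 1 sum per library, and leaving out a library allowed no test.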
